A study of Rattus norvegicus with 14 samples.

Results

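Hox genes encode homeodomain transcription factors that give cells along the head-to-tail axis their positional identity. They lie in 4 clusters, Hoxa to Hoxd, and genes that hold the same place in different clusters share a paralogue number and are called paralogues. Low numbers are used towards the head and high numbers towards the tail, and the high numbers also pattern the limbs and the reproductive tract. In male mice, loss of Hoxa11 disturbs the vas deferens and the descent of the testis. The members described here are the 36 Hox genes among the 18174 genes of a rat count table, chosen by name: every row whose symbol is Hoxa, Hoxb, Hoxc or Hoxd followed by a paralogue number. There were 10 in the Hoxa cluster, 9 in Hoxb, 9 in Hoxc and 8 in Hoxd. Hoxa10, Hoxb2 and Hoxd4 have no row under these names in the table, so they were not analysed here.

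Expression was measured in fetal testes of Harlan Sprague Dawley rats whose dams received dicyclohexyl phthalate (DCHP), a phthalate plasticizer that is known to lower fetal testosterone, by gavage. Dosing ran over gestational days 14 to 18 in a gavage volume of 2.5 ml/kg, and controls received the corn oil vehicle alone. The doses in mg/kg/day were 900 in 2 litters and 600, 300, 100 and 0 (vehicle) in 3 litters each. On day 18 the testes of a litter were combined, apart from those kept for testosterone measurement, and each of the 14 libraries is 1 such litter. Messenger RNA was read by TempO-Seq, a targeted assay that ligates probe pairs on their RNA and counts them by sequencing, and the libraries held 5558873 to 11272861 estimated counts. Levels are CPM, counts relative to a library total scaled by edgeR's TMM method for library composition, and errors are SD over litters unless named as standard errors (SE).

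The tissue label was checked against marker genes. All 8 Sertoli cell markers, 8 germ cell markers and 7 Leydig cell markers had counts, with sums of 700.3 to 996.2 CPM for the Sertoli list and 1070.8 to 1443.5 CPM for the germ cell list. Of 14 markers of the mesonephric duct, its tubules and the epididymis, 12 were in the table. They summed to 118.0 to 188.1 CPM, and the defining markers Pax2, Pax8, Wnt9b and Cdh16 each averaged under 1 CPM. Some libraries stood apart from the rest of their group. The first principal component of the 12701 tested genes that are not Hox genes held 36.1% of their variance. The scores of both 900 mg/kg/day libraries (-38.2 and -22.7) lay next to those of 1 control library, vehicle replicate 1 (-42.5), and of 1 low-dose library, 100 mg/kg/day replicate 1 (-65.0), while the other 10 lay between -1.8 and 35.6. These 4 libraries also had the highest sums of the interstitial and mesenchymal markers (15 of 16 in the table), 9231.0 to 10962.0 CPM against 5497.5 to 7595.8 CPM in the others. In pooled tissue, fewer cells of a type and less RNA per cell cannot be told apart.

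On the rn7 build, as the table gives positions, the Hoxa cluster runs from 81255883 to 81361092 of chromosome 4 on the minus strand. Hoxb runs from 81160498 to 81332837 of chromosome 10, Hoxc from 134058640 to 134173134 of chromosome 7 and Hoxd from 59570646 to 59667770 of chromosome 3, all on the plus strand. A stretch of the Hoxd cluster shows how sharply the signal differed between neighbours: Hoxd11, Hoxd10, Hoxd9 and Hoxd8 follow each other on the chromosome, with mean levels of 1.89, 22.8, 98.8 and 1.64 CPM over the 14 litters. The 250 bases upstream of their annotated starts are printed because these genes stand next to each other at such different levels. The sequences are RefSeq's, on the plus strand of the GRCr8 build and not of rn7, from chr3:79992144-79992393 for Hoxd11, chr3:80001697-80001946 for Hoxd10, chr3:80007756-80008005 for Hoxd9 and chr3:80014973-80015222 for Hoxd8. Capitals mark matches, on either strand, to the motifs searched. These were the TATA box motif TATAAA, the box motif CCAAT that is bound by the factor NF-Y, the GC box motif GGGCGG and the homeodomain core motif TAATTA.
Hoxd11: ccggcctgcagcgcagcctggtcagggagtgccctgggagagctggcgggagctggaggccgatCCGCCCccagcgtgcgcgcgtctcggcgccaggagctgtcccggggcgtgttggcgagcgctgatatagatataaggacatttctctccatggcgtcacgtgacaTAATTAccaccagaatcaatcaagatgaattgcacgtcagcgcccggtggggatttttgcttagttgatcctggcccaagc
Hoxd10: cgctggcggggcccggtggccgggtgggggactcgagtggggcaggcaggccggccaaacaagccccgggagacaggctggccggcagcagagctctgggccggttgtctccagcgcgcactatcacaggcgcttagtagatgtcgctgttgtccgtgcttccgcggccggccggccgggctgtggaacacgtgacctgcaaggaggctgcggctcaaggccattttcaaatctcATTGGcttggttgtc
Hoxd9: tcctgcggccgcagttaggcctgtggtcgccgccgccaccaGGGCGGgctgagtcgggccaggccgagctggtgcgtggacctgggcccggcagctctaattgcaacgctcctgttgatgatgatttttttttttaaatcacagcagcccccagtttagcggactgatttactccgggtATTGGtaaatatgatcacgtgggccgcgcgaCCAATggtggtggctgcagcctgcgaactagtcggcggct
Hoxd8: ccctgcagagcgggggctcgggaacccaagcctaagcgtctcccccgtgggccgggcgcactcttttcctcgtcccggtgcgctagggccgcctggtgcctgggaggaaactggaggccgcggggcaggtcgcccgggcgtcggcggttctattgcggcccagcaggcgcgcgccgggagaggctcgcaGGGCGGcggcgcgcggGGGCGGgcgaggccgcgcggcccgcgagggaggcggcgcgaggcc

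The Hoxd9 window held 2 CCAAT matches and 1 GC box, that of Hoxd10 held 1 CCAAT match, that of Hoxd11 held 1 GC box and 1 TAATTA match, and that of Hoxd8 held 2 GC boxes. TATAAA was in none of these 4 windows. Of the 36 members 18 had such a window in RefSeq's table, with a median GC content of 63.6% and a median of 20 CpG dinucleotides. Over all 33465 windows of the same length the medians were 51.2% and 5. CCAAT and GGGCGG were each in 10 of the 18 Hox windows (55.6%), against 34.0% and 30.5% of all windows. TATAAA was in 2 (11.1% against 12.9%) and TAATTA in 1 (5.56% against 4.86%). These matches are letters in a window, and none was tested as a binding site.

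Hox signal in the fetal testis was carried by a few genes. Hoxc6, a gene of the thoracic body axis (ENSRNOG00000063956), averaged 125.3 ± 33.65 CPM over the 14 litters, and Hoxd9, a paralogue 9 gene of the Hoxd cluster (ENSRNOG00000001580), averaged 98.8 ± 8.91 CPM. Together they made up 66.6% ± 6.56 of the summed Hox signal of a library. Hoxc5 followed at 25.15 ± 13.59 CPM, Hoxd10, a gene of the lumbar axis, at 22.8 ± 4.38 CPM and Hoxc8, a gene of the lower thoracic axis, at 15.8 ± 2.41 CPM. These 5 genes made up 85.9% ± 2.28 of the signal. Among all tested genes, 87.6% had a lower mean than Hoxc6 and 84.5% a lower mean than Hoxd9, while 6.84% lay below Hoxb4, the lowest tested member. Each gene is read by its own probes, whose efficiency is not known here, so a length correction does not apply and an order between genes is an order of probe signal.

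By cluster, Hoxc held 51.2% ± 2.89 of the summed signal, Hoxd 39.2% ± 3.11, Hoxa 7.93% ± 1.56 and Hoxb 1.70% ± 0.458. By paralogue number, the number 6 genes held 38.6% ± 7.65, number 9 held 32.7% ± 2.58, number 5 held 9.42% ± 4.98, number 10 held 6.94% ± 1.07 and number 8 held 5.34% ± 1.26. The genes numbered 2, 12 and 13 held 0.177%, 0.113% and 0.349%. These shares cover only the genes in the table, so number 2 is Hoxa2 alone and number 10 leaves out Hoxa10. Within a paralogue number the clusters differed: at number 6 Hoxc6 stood at 125 CPM, Hoxa6 at 5.67 ± 1.87 CPM and Hoxb6 at 0.194 CPM. At number 9 Hoxd9 stood at 98.8 CPM, Hoxa9 at 7.40 ± 1.40 CPM, Hoxc9 at 1.86 ± 0.47 CPM and Hoxb9 at 0.707 CPM. The ranges of Hoxc6 (57.6 to 157 CPM) and Hoxd9 (85.6 to 121 CPM) overlapped, as did those of Hoxc5 (6.10 to 57.7 CPM), Hoxd10 (15.9 to 29.5 CPM) and Hoxc8 (12.21 to 20.7 CPM). Hoxd9 lay above Hoxd10 in every library, whereas each of the remaining 13 tested members stayed at or below 10.3 CPM.

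**Figure D1:**
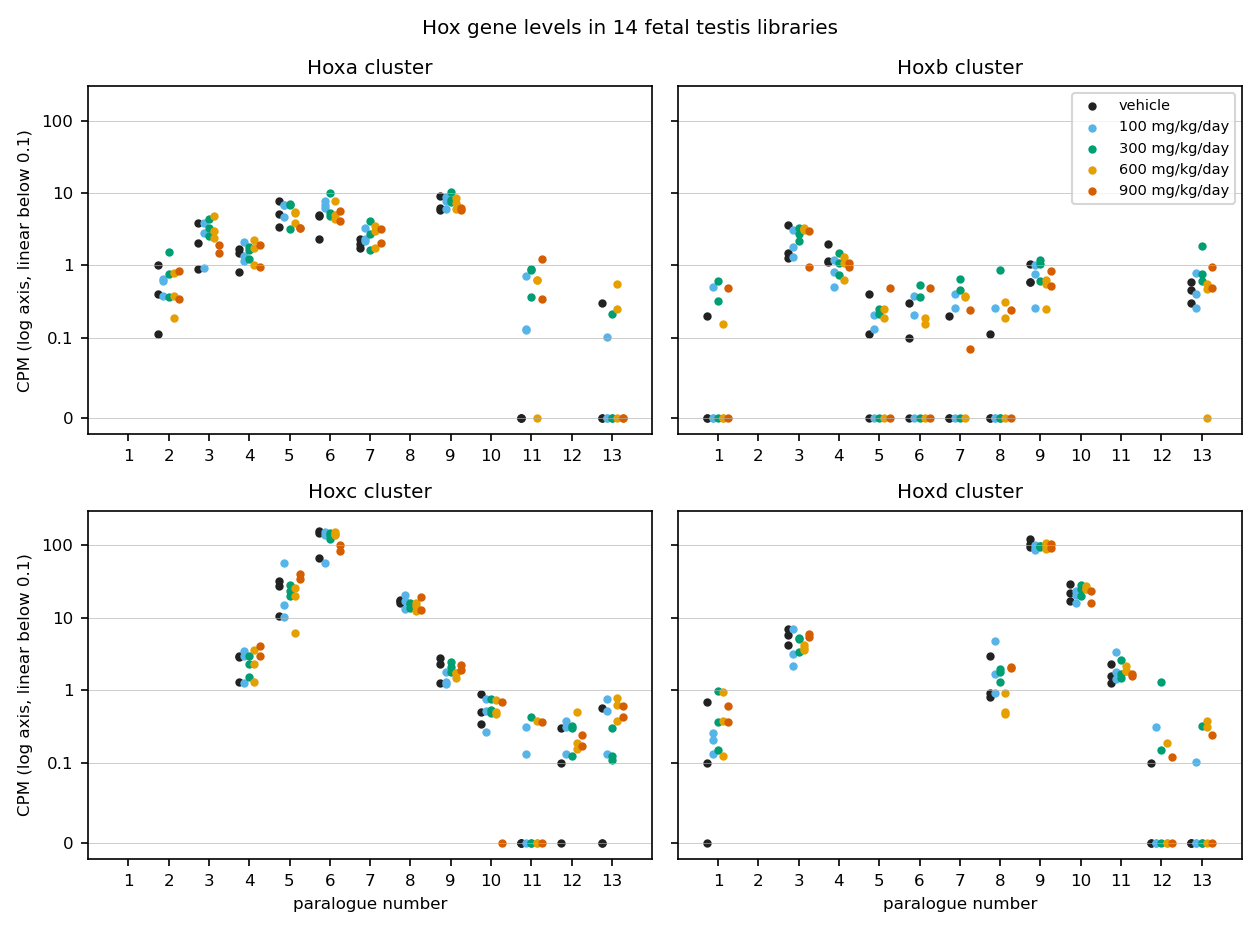
CPM of the Hox genes, 1 low gene not shown (y axis, logarithmic and linear below 0.1) by paralogue number (x axis) in the 4 clusters, each point 1 litter coloured by dose group. Hoxc6 and Hoxd9 sit between 57.6 and 157 CPM in all litters, the Hoxb genes stay at or below 3.58 CPM, and genes numbered 11 to 13 lie at or below 1.83 CPM apart from Hoxd11.

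Of the 36 members 18 passed the filter on low counts (edgeR's filterByExpr) and were tested: 6 Hoxa, 2 Hoxb, 5 Hoxc and 5 Hoxd genes. Those left out included Hoxa2, Hoxa11, Hoxa13, Hoxb1, Hoxb5, Hoxb6, Hoxb7, Hoxb8, Hoxb9, Hoxb13, Hoxc10, Hoxc11, Hoxc12, Hoxc13, Hoxd1, Hoxd12 and Hoxd13. Their total over the 14 libraries ran from 11 counts (Hoxa13 and Hoxd13, genes of the digits and the genital tubercle) to 84 (Hoxb9), and 6 of them had no count in at least 8 libraries. None was at 0 in all 14. Together they summed to 3.18 to 12.8 CPM. The number of these genes with any count was 10, 8 and 9 in the vehicle litters. It was 12, 10 and 17 at 100, 18, 10 and 12 at 300, 13, 13 and 14 at 600 and 16 and 9 at 900 mg/kg/day. The library with a count for all 18, 300 mg/kg/day replicate 1, also had counts for the most genes of the table, 18014. The vehicle libraries had counts for 14903 to 16018 genes and the treated libraries for 14871 to 18014. The part of this difference in the Hox counts was not tested.

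**Figure D2:**
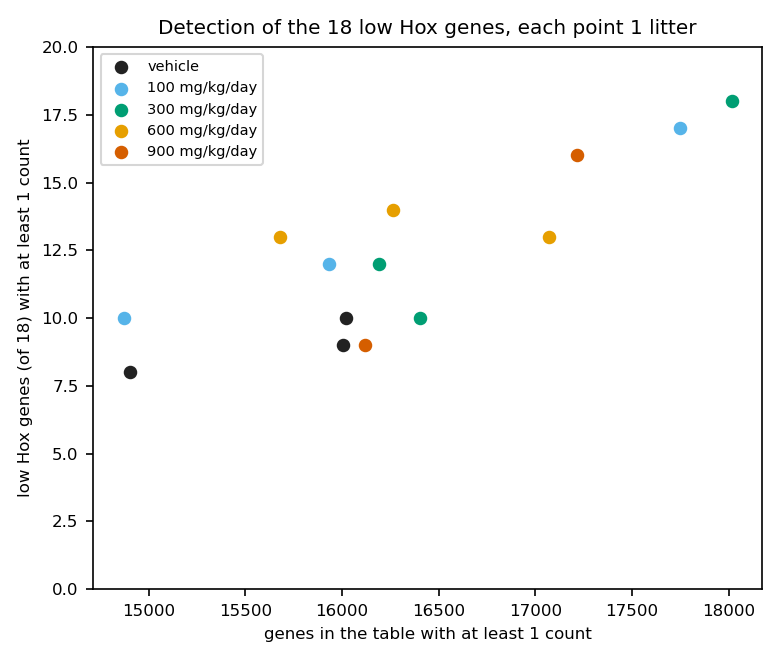
Number of the 18 low Hox genes with at least 1 count (y axis) against the number of all genes with at least 1 count (x axis), each point 1 litter coloured by dose group. The 300 mg/kg/day litter at the upper right has all 18 of them and 18014 genes, and the vehicle litters have 8 to 10.

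Hoxa11, named here after its counts were seen, had no count in any of the 3 vehicle libraries. It had 1, 1 and 7 counts at 100 mg/kg/day, 8, 3 and 6 at 300, 5, 4 and 0 at 600 and 10 and 4 at 900. All vehicle libraries were at 0, while treated libraries went up to 10 counts, and 1 of 11 treated libraries was at 0. A count of 0 allows up to 3 counts in a library, and 4 of the 11 treated libraries also held 3 or fewer, so no fold is given. When edgeR's quasi-likelihood test was run with no filter, Hoxa11 had unadjusted p from 0.00262 to 0.0116 over the 4 doses and did not pass at any of them, with the lowest adjusted p at 900 mg/kg/day (0.447). The treated libraries with the most Hoxa11 were 900 mg/kg/day replicate 1, 300 mg/kg/day replicate 1 and 100 mg/kg/day replicate 3. They also had counts for the most genes of the table, 17216, 18014 and 17749. The order did not hold throughout: 600 mg/kg/day replicate 1 had 5 Hoxa11 counts with 15677 genes. Vehicle replicates 1 and 3 had 0 with 16018 and 16006 genes. The part of gene detection in the Hoxa11 counts was not tested. Hoxc11 and Hoxd13 were also at 0 in all 3 vehicle libraries, with up to 4 and 3 counts in a treated library. How many genes of the whole table share this pattern was not counted, so it cannot be read as particular to Hoxa11.

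None of the 18 tested Hox genes passed the test at any dose, and the intervals of many leave room for sizeable changes, such as a fold of 0.137 to 1.15 for Hoxd8 at 600 mg/kg/day and of 0.332 to 1.07 for Hoxa5 at 900 mg/kg/day. In edgeR's quasi-likelihood test, fitted to all 14 libraries with Benjamini-Hochberg adjustment over 12719 genes at a threshold of 0.05, 0 members passed against vehicle at each of the 4 doses, and 0 in the linear trend over dose. Over all tested genes, 0%, 0.0472%, 0.220% and 0.252% passed at the doses in rising order and 0.425% in the trend, so with 18 members a count of 0 is near the background. At an unadjusted p under 0.05, 1, 0, 0, 0 and 1 members were found, against 3.40%, 3.65%, 4.79%, 4.99% and 5.09% of all genes. DESeq2 also called 0 members in each comparison, with the same 1, 0, 0, 0 and 1 at an unadjusted p. Without the filter, when all 36 members entered the fit, 0 passed as well. Median log2 fold changes of the 18 were 0.11, 0.083, 0.049 and -0.082 at the rising doses, beside 0.010, -0.015, -0.022 and 0.024 over all tested genes. Positive values numbered 11, 13, 10 and 7 of the 18, beside 6656, 5990, 5952 and 6753 of the 12719 genes tested.

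**Figure D3:**
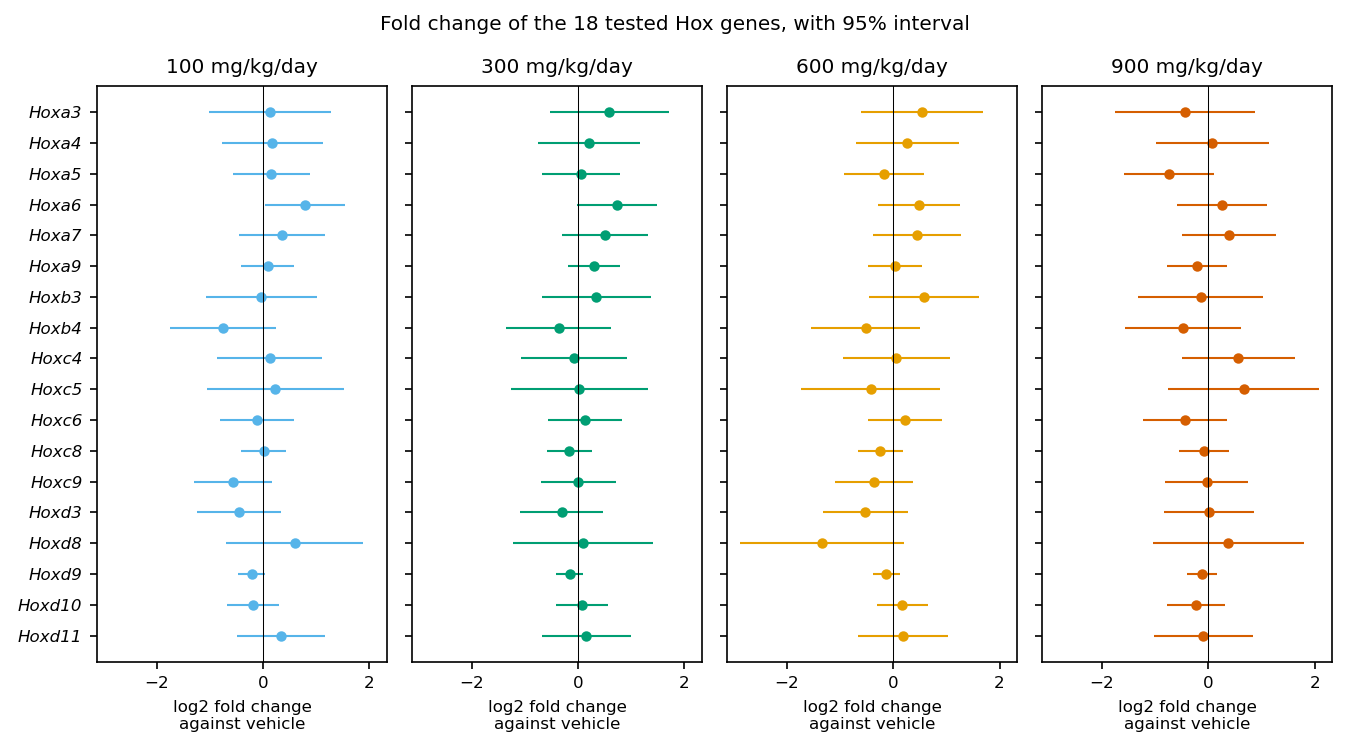
Log2 fold change against vehicle (x axis) of the 18 tested Hox genes (y axis) at each dose, with points for the estimate of edgeR's quasi-likelihood fit and lines for an approximate 95% interval. All intervals include 0 except that of Hoxa6 at 100 mg/kg/day (0.032 to 1.53), which was not past the threshold after adjustment.

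Hoxd9 had the lowest coefficient of variation of the 18 tested members. Its level was 95.5, 121 and 106 CPM in the vehicle litters, 85.6, 92.8 and 100.5 CPM at 100 mg/kg/day and 97.1, 96.0 and 96.5 CPM at 300. It was 108, 89.55 and 97.3 CPM at 600 and 93.1 and 105 CPM at 900 mg/kg/day. Every treated group overlapped the vehicle litters. The fold change at 900 mg/kg/day was 0.920 with a 95% interval of 0.755 to 1.12 (log2 -0.12 ± 0.13 SE, edgeR adjusted p = 0.852). Over all litters its coefficient of variation was 9.02%, beside 3.52% from counting alone. Those of Hoxc8, Hoxa9 and Hoxd10 were 15.2%, 18.99% and 19.2%, and that of Hoxc6 was 26.9%. Those of Hoxc5 and Hoxd8 were the highest at 54.0% and 68.98%, beside 6.90% and 27.1% from counting alone.

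Hoxc6, the other high member, differed by more than 2-fold between litters of the vehicle group and of the 100 mg/kg/day group. It stood at 67.8, 157 and 149.7 CPM in vehicle, 57.6, 151 and 138 CPM at 100, 140.3, 124 and 147 CPM at 300, 154, 139 and 145 CPM at 600 and 83.5 and 101 CPM at 900 mg/kg/day. Vehicle replicate 1 and 100 mg/kg/day replicate 1 were the lowest of all, below both 900 mg/kg/day litters, and the other libraries lay at 124 CPM or above. The log2 fold change at 900 mg/kg/day was -0.44 ± 0.37 SE (edgeR adjusted p = 0.852), and the 95% interval of the fold ran from 0.427 to 1.28. In a further fit vehicle replicate 1 and 100 mg/kg/day replicate 1 were both left out, a choice made after seeing the data. Because these libraries held the lowest Hoxc6 values of all, a lower 900 mg/kg/day group followed from the choice. The fit is therefore no test of Hoxc6. In it Hoxc6 passed as lower at 900 mg/kg/day (-0.76 ± 0.12 SE, edgeR adjusted p = 0.00151). It also passed in the trend (-0.060 ± 0.018 SE per 100 mg/kg/day, edgeR adjusted p = 0.0384). Hoxc6 was the only 1 of the 18 tested members that passed. Of all tested genes, 2102 passed at 900 mg/kg/day and 1494 in the trend in that fit. In the fit to all 14 libraries these counts were 32 and 54 of 12719. Passing was thus common among genes at large in the further fit and does not single out Hoxc6. Without vehicle replicate 1 alone Hoxc6 did not pass at 900 mg/kg/day (-0.73 ± 0.31 SE, adjusted p = 0.337).

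**Figure D4:**
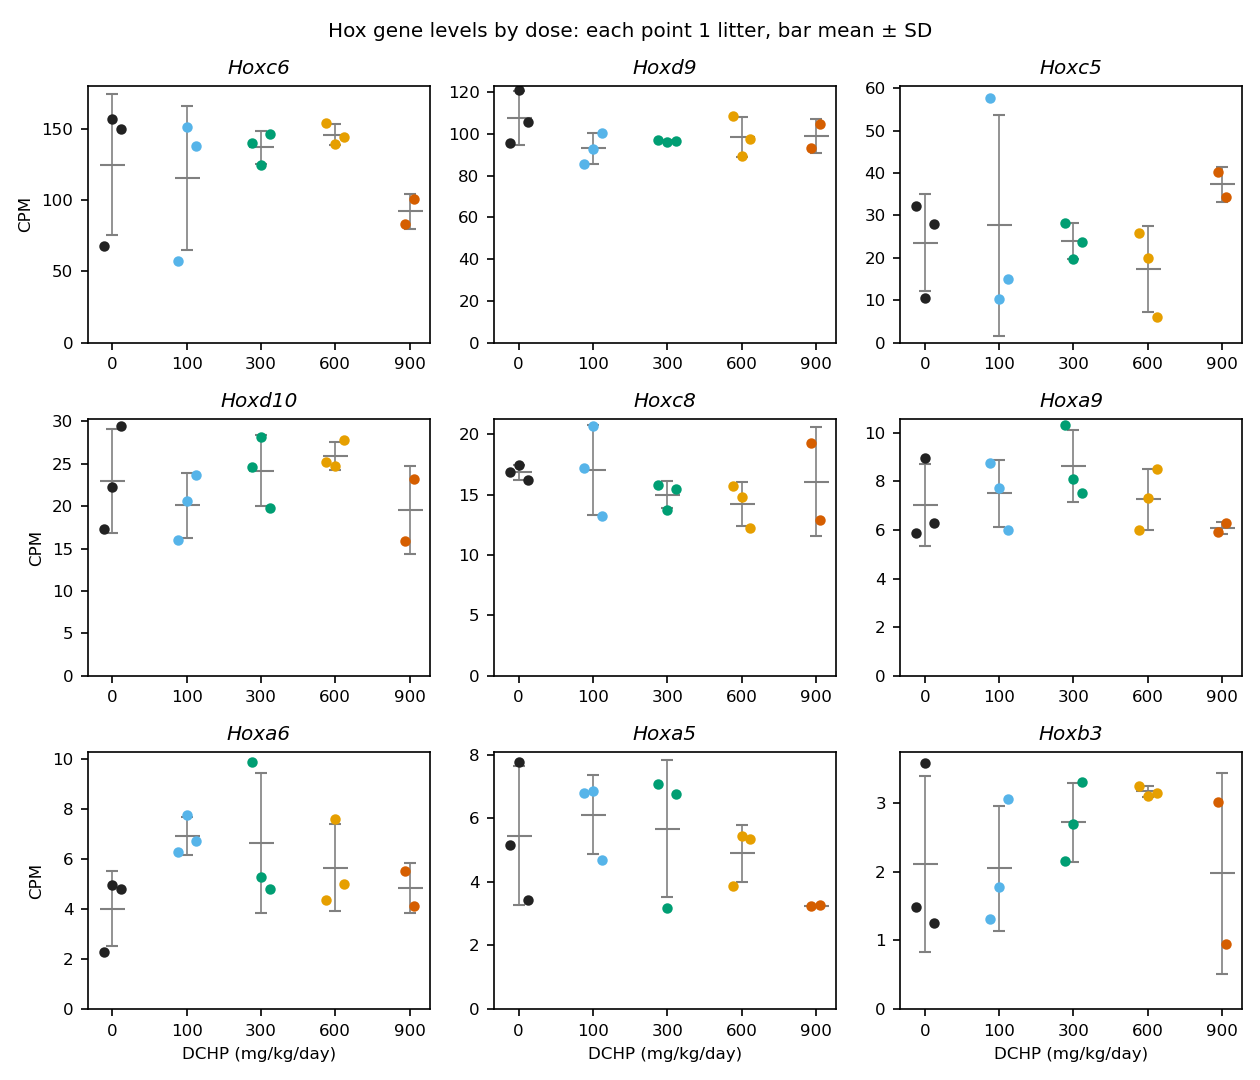
CPM (y axis, from 0) of 9 Hox genes by dose (x axis), each point 1 litter, with the group mean and SD in grey. Hoxd9 stays between 85.6 and 121 CPM in all groups, and 1 vehicle and 1 100 mg/kg/day litter lie as low as the 900 mg/kg/day litters for Hoxc6.

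In the Hoxa cluster, whose tested members ran from Hoxa3 to Hoxa9, Hoxa6 and Hoxa5 had the smallest p values. Hoxa6 was at 2.28, 4.98 and 4.80 CPM in vehicle and 6.27, 7.75 and 6.73 CPM at 100 mg/kg/day, so these groups did not overlap. It was at 9.88, 5.28 and 4.80 CPM at 300, 4.38, 7.62 and 4.99 CPM at 600 and 5.54 and 4.12 CPM at 900. Its log2 fold change at 100 mg/kg/day was 0.78 ± 0.35 SE (edgeR adjusted p = 0.9999), and at 900 mg/kg/day it was 0.26 ± 0.39 SE (adjusted p = 0.868). Hoxa5, known for its part in lung and cervical-thoracic development, was at 5.16, 7.76 and 3.43 CPM in vehicle, 6.79, 6.86 and 4.69 CPM at 100 and 7.09, 3.19 and 6.75 CPM at 300. It was at 3.88, 5.44 and 5.36 CPM at 600 and at 3.25 and 3.26 CPM at 900 mg/kg/day. Both litters of the highest dose lay below all 3 vehicle litters, though 1 litter at 300 mg/kg/day was lower still. The slope of Hoxa5 was -0.078 ± 0.036 SE log2 per 100 mg/kg/day (unadjusted p = 0.0439, edgeR adjusted p = 0.955).

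Hoxa9, the highest member of its cluster and a gene also used in blood-forming cells and the oviduct, was at 5.86, 8.96 and 6.29 CPM in vehicle and 8.75, 7.75 and 6.02 CPM at 100 mg/kg/day. It was at 10.3, 8.10 and 7.50 CPM at 300, 6.001, 7.31 and 8.51 CPM at 600 and 5.90 and 6.27 CPM at 900 mg/kg/day, overlapping the vehicle range at every dose. Its fold at 900 mg/kg/day had an interval of 0.587 to 1.28. On rn7 the span of Hoxa3 overlaps those of Hoxa4, Hoxa5 and Hoxa6 on the same strand. Which of these 4 genes each probe reads was not tested.

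In the Hoxb cluster only Hoxb3 and Hoxb4 were tested. Hoxb3, a gene of the hindbrain and pharyngeal arches, was at 1.49, 3.58 and 1.26 CPM in vehicle, 1.31, 1.78 and 3.06 CPM at 100 and 2.15, 2.701 and 3.30 CPM at 300 mg/kg/day. It was at 3.25, 3.11 and 3.14 CPM at 600 and 3.01 and 0.945 CPM at 900 mg/kg/day. Its groups overlapped, and at these counts (10 to 36 a library) the interval of the fold at 900 mg/kg/day was wide, from 0.403 to 2.04. Hoxb4, known from blood stem cells, had 4 to 20 counts a library and a log2 fold change of -0.48 ± 0.50 SE at 900 mg/kg/day (edgeR adjusted p = 0.852).

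In the Hoxc cluster, Hoxc8 was at 16.9, 17.4 and 16.2 CPM in vehicle, 17.2, 20.7 and 13.3 CPM at 100 and 15.8, 13.8 and 15.5 CPM at 300 mg/kg/day. It was at 15.8, 14.8 and 12.21 CPM at 600 and 19.3 and 12.9 CPM at 900. Litters at 300 and 600 mg/kg/day lay below all vehicle litters, by log2 -0.17 ± 0.20 SE and -0.24 ± 0.20 SE, and those at 100 and 900 lay on both sides. Hoxc4 was at 2.88, 1.29 and 2.97 CPM in vehicle, 3.53, 1.27 and 2.96 CPM at 100, 1.504, 2.33 and 3.00 CPM at 300, 3.63, 2.33 and 1.30 CPM at 600 and 4.10 and 3.01 CPM at 900 mg/kg/day. Its 900 mg/kg/day litters lay above all vehicle litters, by log2 0.57 ± 0.49 SE (edgeR adjusted p = 0.852).

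Such separations were counted among the 18 tested members only, which leaves out Hoxa11. Every treated litter lay above every vehicle litter for 1 member at 100 mg/kg/day (Hoxa6), 0 at 300 and 0 at 600. At 900 mg/kg/day this held for 2 (Hoxc4 and Hoxc5). The shares over all tested genes were 2.99%, 4.88%, 5.06% and 10.3%. Every treated litter lay below every vehicle litter for 0, 1 (Hoxc8), 1 (Hoxc8) and 2 members (Hoxa5 and Hoxb4), against 2.99%, 4.46%, 5.92% and 8.83%. In 18 members these counts are near the background.

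Hoxc6 and Hoxc5 are neighbours on chromosome 7, with 2594 bases between them on rn7, and their extremes fell in the same litters in opposite directions. Hoxc5, described here after its values were seen, was at 32.2, 10.6 and 27.9 CPM in vehicle and 57.7, 10.3 and 15.0 CPM at 100 mg/kg/day. It was at 28.3, 19.8 and 23.7 CPM at 300, 25.9, 20.1 and 6.10 CPM at 600 and 40.2 and 34.4 CPM at 900 mg/kg/day. The 4 libraries with the most Hoxc5 were the 4 with the least Hoxc6: 100 mg/kg/day replicate 1, both 900 mg/kg/day litters and vehicle replicate 1. The ratio of Hoxc6 to Hoxc5 signal was 0.998 in 100 mg/kg/day replicate 1, between 2.08 and 2.92 in the other 3 of these libraries, and reached 23.7 in 600 mg/kg/day replicate 3. The highest ratio rests on 33 counts of Hoxc5, the fewest in any library, and the lowest on 442. The log2 fold change of Hoxc5 at 900 mg/kg/day was 0.67 ± 0.66 SE (edgeR adjusted p = 0.852), and at 100 mg/kg/day it was 0.23 ± 0.60 SE with 100 mg/kg/day replicate 1 and -0.89 ± 0.53 SE without it. In the rn7 table the spans of Hoxc5 and Hoxc6 do not overlap, while in RefSeq's GRCr8 annotation the span of Hoxc6 overlaps Hoxc5 and Hoxc4, and which transcripts each probe reads was not tested.

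**Figure D5:**
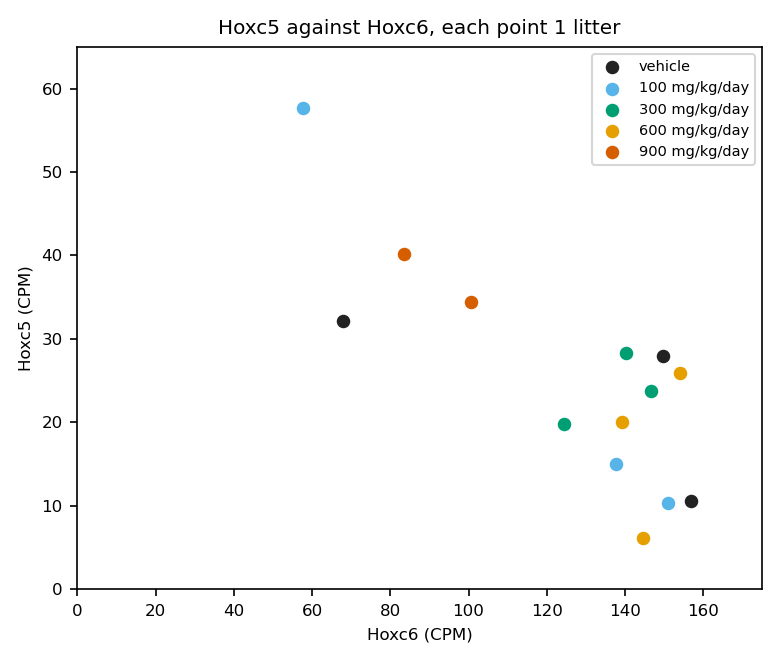
Hoxc5 (y axis) against Hoxc6 (x axis) in CPM, each point 1 litter coloured by dose group. The 4 litters with Hoxc6 at or below 101 CPM have Hoxc5 at 32.2 CPM or above, and the other 10 have Hoxc6 at 124 CPM or above and Hoxc5 at or below 28.3 CPM.

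The same 4 libraries, which stand apart on the first principal component of the other genes, held the extremes of 2 further members that were picked out after their values were seen. Hoxd8 was at 2.98, 0.796 and 0.914 CPM in vehicle, 4.70, 1.65 and 0.918 CPM at 100, 1.29, 1.96 and 1.80 CPM at 300, 0.500, 0.466 and 0.925 CPM at 600 and 2.05 and 2.06 CPM at 900 mg/kg/day. Its 4 highest values were in these libraries. The log2 fold change of Hoxd8 at 600 mg/kg/day was -1.34 ± 0.71 SE (edgeR adjusted p = 0.9505). It rests on 4, 3 and 5 counts at that dose, against 30, 8 and 8 in vehicle. Hoxa3, a gene of thymus and parathyroid development, was at 0.893, 3.88 and 2.06 CPM in vehicle, 0.914, 3.81 and 2.75 CPM at 100, 4.41, 2.58 and 3.30 CPM at 300, 2.38, 2.95 and 4.81 CPM at 600 and 1.93 and 1.46 CPM at 900 mg/kg/day. Its 4 lowest values were in the same libraries. In all, 2 of 18 members had these 4 libraries above the other 10 and 2 had them below (11.1% each), beside 13.3% and 10.19% of all tested genes, so the share in Hox genes is near that of genes at large. The interstitial and mesenchymal markers were highest in the same libraries, as given above, and their part in these values was not tested.

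Hoxd10 and Hoxd3, the remaining Hoxd members at over 4 CPM, overlapped the vehicle litters at every dose. Hoxd10 was at 17.3, 22.2 and 29.5 CPM in vehicle and 15.9 and 23.2 CPM at 900 mg/kg/day, with 16.1 to 28.1 CPM in the groups between. Hoxd3 was at 6.95, 4.18 and 5.72 CPM in vehicle and 5.42 and 5.93 CPM at 900 mg/kg/day, with 2.16 to 7.05 CPM between. The 95% interval of the fold at 900 mg/kg/day was 0.587 to 1.24 for Hoxd10 and 0.562 to 1.82 for Hoxd3. The summed signal of all 36 genes ran from 271 CPM in vehicle replicate 1 to 377 CPM in vehicle replicate 2. Its group means, with n = 3 except at the highest dose, were 338 ± 58.3 CPM in vehicle, 321 ± 28.5 CPM at 100, 349.5 ± 22.9 CPM at 300 and 348 ± 19.6 CPM at 600 mg/kg/day. The 2 litters at 900 mg/kg/day averaged 308 ± 11.1 CPM.

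Genes that work with or on the Hox clusters did not pass at any dose or in the trend. Over all tested genes 0% to 0.425% passed in a comparison. A count of 0 in a list of 8 to 18 genes is therefore near the background. Of the TALE-class cofactors, homeodomain proteins that bind DNA with Hox proteins, 0 of 8 tested members passed in any comparison, which does not show that they were unchanged. Pknox1, at 28.1 CPM (15.9 to 41.6 CPM), had the smallest trend p of these (slope 0.066 ± 0.027 SE log2 per 100 mg/kg/day, edgeR adjusted p = 0.828). Of the Polycomb and trithorax regulators, which hold Hox clusters silent or active, 0 of 18 passed. Cbx2, a Polycomb subunit needed for testis development, was at 141 CPM with a log2 fold change of 0.23 ± 0.11 SE at 900 mg/kg/day (edgeR adjusted p = 0.852). Of the upstream regulators 0 of 11 passed. Aldh1a2, a retinoic acid synthesis enzyme, was at 323 CPM with -0.40 ± 0.30 SE at 900 mg/kg/day, and Aldh1a3 was at 1.88 CPM with -1.05 ± 0.54 SE, both with an edgeR adjusted p = 0.852.

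Of the genes that flank the Hox clusters 0 of 9 passed, and Skap2, a flank of the Hoxa cluster, was at 56.2 CPM with 0.43 ± 0.18 SE at 900 mg/kg/day (edgeR adjusted p = 0.852). Of the other homeobox genes of urogenital development 0 of 9 passed. Lhx9, a gene needed to form the gonad, was at 147 CPM (125 to 194 CPM) with -0.22 ± 0.16 SE at 900 mg/kg/day (edgeR adjusted p = 0.852). Median log2 fold changes at 900 mg/kg/day were 0.098 for the cofactors, 0.055 for the Polycomb and trithorax genes, 0.065 for the upstream regulators, 0.091 for the flanking genes and -0.074 for the other homeobox genes, beside 0.024 over all tested genes. The Leydig cell markers, by contrast, had 0, 2, 3 and 4 of 7 members past the threshold at 100, 300, 600 and 900 mg/kg/day. For the slope over dose 6 passed, in the same fits. Their summed level was 3743.5 to 7882.5 CPM in the vehicle litters and 1022.9 to 1258.6 CPM at 900 mg/kg/day.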

How the data were processed

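Estimated counts per Ensembl gene were used as the authors deposited them, and the submitters' processing notes name STAR 2.7.8a, Partek, DESeq2 and the rn7 build without saying which made the table. Of the values 83.6% were whole to a tolerance of 1e-09, as were all values of the 36 Hox genes, and all were rounded. A second deposited table multiplies 16 genes to undo assay attenuation, and no Hox gene differs in it. The authors' deposited log2 CPM table holds 11624 genes, 17 of them Hox genes, and was used only for that count.

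Genes were filtered with filterByExpr on dose group (12719 kept, 5455 left out), scaled by TMM and fitted with edgeR 4.0.16 (robust quasi-likelihood, R 4.3.3, 9 residual degrees of freedom, common biological coefficient of variation 0.232). Each dose was compared with vehicle, and a second fit gave the slope per 100 mg/kg/day. Tests were two-sided. The SE of an edgeR value was taken as the size of the log2 change divided by the square root of its F statistic. The 95% intervals were built from these SE with t quantiles, so both are approximate. The procedure was tested on simulated data. Alternatives were DESeq2 1.42.0, other scalings, filters, the adjusted counts, dose as rank, 2 groups only and each library left out.

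Some genes are not reported here. Values per litter are given for the highest member of each cluster, the 4 with the smallest trend p and, at each dose, the one with the smallest p, and from the other lists for up to 3 with the smallest trend p. Members and lists were chosen with earlier results of these data known. Replicate numbers follow the order of the sample records and only name a litter.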

Additional observations from a re-analysis of the deposited data

How the results depend on the processing

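The count of 0 Hox genes past the threshold held at every dose and in the trend under each alternative processing choice: RLE size factors, library totals only, DESeq2, no filter, a mean of at least 20 counts, attenuation-adjusted counts, fits of only the 2 groups compared, dose as rank and each of the 14 libraries left out (0 to 0). The exception was chosen after seeing the data: both outlying low-dose and control libraries left out together (replicate 1 of the vehicle and 100 mg/kg/day groups). Then 1 Hox gene passed at the highest dose and 1 in the trend, Hoxc6 both times. The libraries left out held its lowest values, so that fit is no test of Hoxc6, and the cause was not tested. Of 1948 values of single Hox genes under an alternative, 1931 kept their side of the threshold and either their sign or a value within 1 SE of the reported one, 15 changed sign by more than 1 SE without passing, and 2 newly passed (Hoxc6, above). With dose as rank the slope is per rank and was not rescaled to 100 mg/kg/day. For those values only the sign and the side of the threshold can be compared. Counts over all genes moved more: with DESeq2 they were 2, 26, 59, 86 and 119 in the order 100, 300, 600, 900 mg/kg/day, trend, against 0, 6, 28, 32 and 54. They were 39, 66 and 2102 at 300, 600 and 900 mg/kg/day and 1494 for the trend without those 2 libraries, 15 at 600 mg/kg/day with RLE factors, and 4, 8 and 4 at 300, 600 and 900 mg/kg/day with 2 groups only. Leaving out 1 library gave 0 to 9 at 300, 6 to 50 at 600, 0 (without 900 mg/kg/day replicate 1) to 50 at 900 mg/kg/day and 30 to 76 for the trend. The 17 shares of clusters and paralogue numbers were the same with attenuation-adjusted counts. No paired analysis was possible because no number in the labels is shared between litters of different dose groups. In these libraries 1 count is 0.0887 to 0.180 CPM, which limits what can be seen in the 18 low members.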
